A study of Homo sapiens with 6 samples.

Results

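The AP-1 and immediate-early transcription factors form a group of 10 genes, FOS, FOSB, FOSL1, FOSL2, JUN, JUNB, JUND, ATF3, EGR1 and MAFF. They were chosen by name, and each was matched through its Ensembl identifier to 1 of the 60664 genes in the count table. All 10 passed the filter on low counts and were among the 15130 genes tested. The question was whether overexpression of P4HA3, an alpha subunit of collagen prolyl 4-hydroxylase, changed the RNA of these factors in SiHa PR cells. SiHa is an established human cervical squamous carcinoma line, and PR marks the parental cells of a lymph node metastatic derivative. RNA-seq was performed on 3 samples labelled SiHa PR, called control here, and 3 samples labelled SiHa PR P4HA3, in which the study put P4HA3 cDNA into the cells with a lentiviral vector. The labels name no drug, time point or vector for the control samples, although the study describes vector controls. Whether a line was a pool or a clone, and the density and serum supply of the cultures at harvest, are not given in the sources used here. The labels do not say that the 3 samples of a group were separate cultures, so the p-values measure the spread between these samples, which may be technical.

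AP-1 is a family of dimers built from basic leucine zipper proteins. JUN proteins pair with each other or with FOS proteins, whereas FOS proteins need a JUN partner. ATF3 and the small MAF protein MAFF are related zipper proteins, and EGR1 is a zinc finger factor. Many of these genes are immediate-early genes, which serum, growth factors and stress induce within minutes through ERK, JNK and p38 kinases and the serum response factor SRF. In squamous cancer cells, AP-1 is known for driving genes of matrix breakdown, invasion and inflammation.

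P4HA3, the overexpressed gene, had between 62 and 93 counts per control library and between 44775 and 49097 counts per overexpressing library. Total counts per library ran from 21773488 to 24939948. Pairs of libraries within a group were further apart than counting noise alone gives (chi-square over degrees of freedom, 5.15 to 17.6). The growth protocol in the labels describes uterine smooth muscle, whereas the source name and cell line labels give SiHa. Of 10 epithelial markers 7 reached a mean of 1 CPM (a gene's counts scaled to its library's TMM-normalized size), with a summed level of 7421 to 8540 CPM in control and 6279 to 7319 CPM with overexpression, which did not overlap. KRT6A, KRT17, KRT18 and CDH1 were called lower, with log2 fold changes of -1.26, -0.32, -0.40 and -0.77, and KRT17 was not called after the GC and length correction described below. Of 8 smooth muscle markers, only ACTA2 reached 1 CPM in both groups, with 161 to 204 counts per library. ACTG2 had 30, 40 and 44 counts in control replicate 3 and overexpressing replicates 1 and 3, and at most 1 count in the other libraries. DES, CNN1, MYH11, LMOD1 and PLN had at most 9 counts in any library and SYNPO2 at most 16, and the summed smooth muscle level was 7.23 to 10.7 CPM in control and 8.00 to 10.9 CPM with overexpression. All 6 fibroblast markers reached 1 CPM, with a summed level of 184 to 194 CPM in control and 144 to 185 CPM with overexpression. Of the 5 immune markers, only CD14 reached 1 CPM, and PTPRC had at most 1 count. The summed immune level, almost all of it CD14, ran from 91.3 to 109.7 CPM in control and from 35.1 to 50.9 CPM with overexpression, with CD14 called lower at a log2 fold change of -1.15. Of 4 endothelial markers only PECAM1 reached 1 CPM, and it was called lower at -1.03, with a summed endothelial level of 2.57 to 3.47 CPM in control and 1.33 to 1.62 CPM with overexpression. The part of these marker shifts in the results below was not tested. The basal squamous markers KRT5 and TP63 had at most 13 counts in a library.

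Fold changes also followed GC content. Spearman's rho of the log2 fold change with the GC content of the canonical transcript was -0.58 over 15107 tested genes, which do not count as independent replicates. The 10 factors all lay above the median GC content of tested genes, 49.3%, with a median of 56.9%. The fold change of each factor and of each gene named from the pathway lists is therefore given also after a smooth trend on GC content and transcript length was taken out of every library. This correction takes out any part of a group difference that follows GC content or length, whatever its origin. Libraries of the same group also differed along GC content. Spearman's rho of a library's deviation from its group mean with GC content was 0.22, 0.383 and -0.524 in control replicates 1, 2 and 3. In overexpressing replicates 1, 2 and 3 it was 0.451, -0.48 and 0.077.

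Without the GC and length correction, edgeR called 4 factors, EGR1 as higher and JUNB, JUND and MAFF as lower. With the correction JUND was not called, while JUN and ATF3 were called as higher. Promoters are shown for the 4 factors called without it. Each is the run of 250 bases just before the transcription start in the RefSeq promoter table (GRCh38.p14), 5′ to 3′ along the gene. Of the 10 factors, 9 were matched in this table, and FOSL1 was not. MAFF has more than 1 start in the table, and the first entry is shown. The searched motifs, on both strands, were the CArG box that binds SRF, the AP-1 site TGANTCA, the cAMP response element TGACGTCA, its shorter core TGACG, which lies within it, and the EGR site GCGTGGGCG. Capitals mark the matches.
EGR1, chr5:138465229-138465478, plus strand: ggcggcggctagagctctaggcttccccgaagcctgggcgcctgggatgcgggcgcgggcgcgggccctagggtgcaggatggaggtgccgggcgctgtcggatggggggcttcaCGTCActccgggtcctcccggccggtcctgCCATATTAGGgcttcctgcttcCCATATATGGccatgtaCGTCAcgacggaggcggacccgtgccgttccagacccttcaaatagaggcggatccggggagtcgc
JUNB, chr19:12791236-12791485, plus strand: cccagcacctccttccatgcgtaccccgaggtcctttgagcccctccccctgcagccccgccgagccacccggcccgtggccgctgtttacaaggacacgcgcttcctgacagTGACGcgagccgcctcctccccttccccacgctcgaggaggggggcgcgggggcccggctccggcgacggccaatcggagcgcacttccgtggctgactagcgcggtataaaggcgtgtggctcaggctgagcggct
JUND, chr19:18281623-18281872, minus strand: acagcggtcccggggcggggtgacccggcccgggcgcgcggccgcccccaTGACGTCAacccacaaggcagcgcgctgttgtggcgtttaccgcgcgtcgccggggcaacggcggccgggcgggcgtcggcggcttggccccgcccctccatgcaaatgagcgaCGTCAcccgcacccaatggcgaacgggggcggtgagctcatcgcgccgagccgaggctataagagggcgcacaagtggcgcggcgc
MAFF, chr22:38201744-38201993, plus strand: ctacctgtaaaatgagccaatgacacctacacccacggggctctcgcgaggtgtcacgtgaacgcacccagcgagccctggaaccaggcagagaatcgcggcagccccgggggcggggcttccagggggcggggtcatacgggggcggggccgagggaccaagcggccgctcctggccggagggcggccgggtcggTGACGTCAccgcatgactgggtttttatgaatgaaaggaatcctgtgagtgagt
EGR1 held 2 CArG boxes, which began 105 and 83 bases before the start. A CArG box was found in 1.16% of 35116 RefSeq promoters of this length, and among the 9 windows of matched factors only in that of EGR1. Sequence further from the start was not searched, so a CArG box there would have been missed. JUND and MAFF each held the full cAMP response element, which 1.65% of promoters held. JUNB held the core TGACG but not the full element, and 21.2% of promoters held the core, with or without the full element. The core was also found in EGR1 and in the windows of FOS, FOSB, FOSL2 and JUN. Neither the AP-1 site, in 6.57% of promoters, nor the EGR site, in 0.72%, was found in the 9 windows. Only the letters given for these sites were searched, so variants of them would have been missed. The run TGACATCA, for example, lies in the windows of JUN and ATF3 and was not searched. These matches are descriptions of letters, and binding was not measured.

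Among the 10 factors, 1 was higher and 3 were lower in the overexpressing cells, with an adjusted p under 0.05 by the quasi-likelihood test of edgeR, with p-values adjusted by Benjamini-Hochberg over all genes tested (SE below is the standard error of a log2 fold change). Of all genes tested, 9.36% were called higher and 11.4% lower. The median log2 fold change was -0.10 over the 10 factors and 0.01 over all genes tested. The groups did not overlap in 2 factors in the higher direction and 4 in the lower direction, against 19.7% and 20.4% of all genes tested. After the GC and length correction, 3 factors were called higher and 2 lower, against 10.6% and 7.94% of all genes, and the median over the factors was 0.03. EGR1, JUNB and MAFF were called in the same direction by both.

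**Figure D1:**
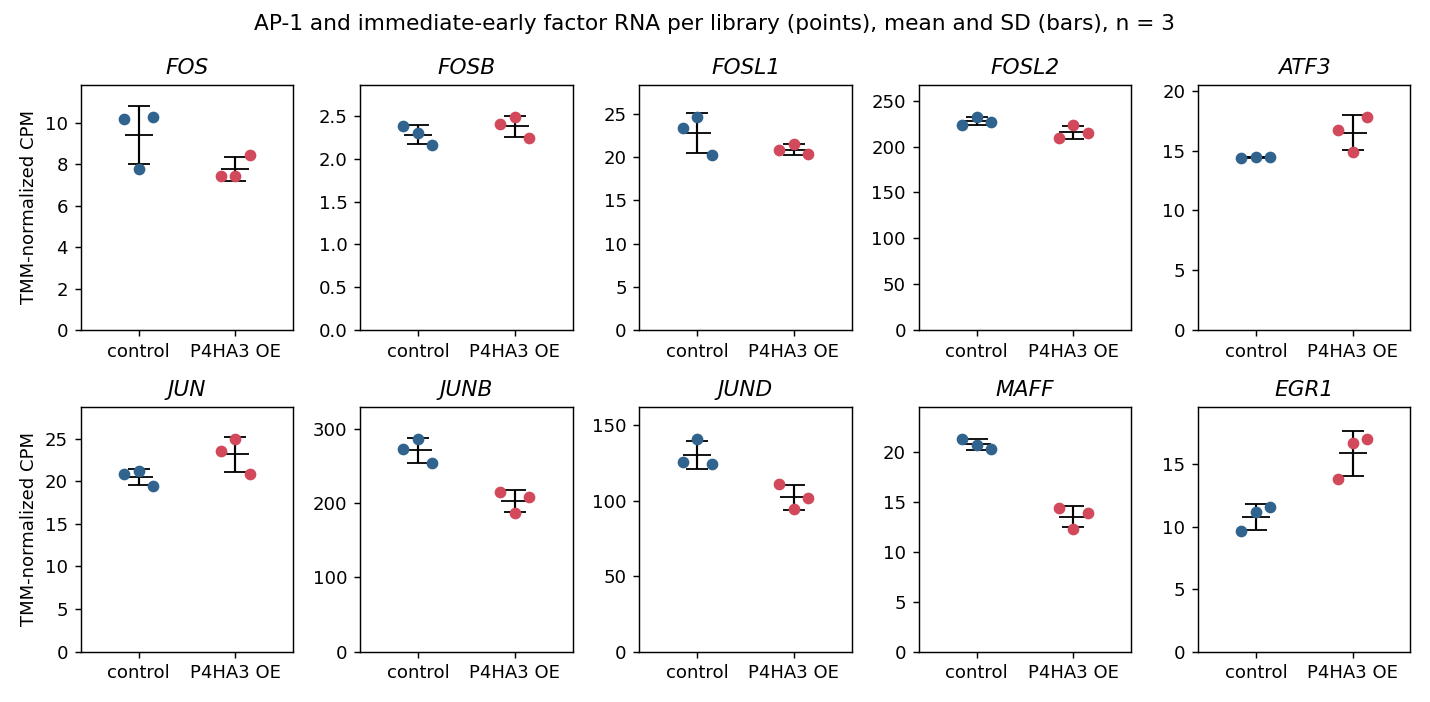
TMM-normalized CPM (vertical axes, from 0) of the 10 factors in the 3 control libraries (blue) and the 3 P4HA3-overexpressing libraries (red), with the mean and SD of each group. EGR1 lay between 9.61 and 11.6 CPM in control and between 13.8 and 17.0 CPM with overexpression, whereas JUNB, JUND and MAFF lay lower in every overexpressing library than in any control library.

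EGR1 (ENSG00000120738, chr5:138465479-138469303 of GRCh38, plus strand), which encodes a zinc finger activator and an early target of ERK signalling, was the only factor called higher without the GC and length correction. Its level was 9.61, 11.2 and 11.6 CPM in control replicates 1, 2 and 3. It was 13.8, 16.7 and 17.0 CPM in overexpressing replicates 1, 2 and 3. No control library reached the lowest of the overexpressing libraries. The mean rose from 10.8 ± 1.03 to 15.8 ± 1.79 CPM (SD, each n = 3), which is 1.47-fold, or 0.56 on the log2 scale (SE 0.11, edgeR adjusted p = 0.0105). The GC and length correction gave 0.67 (edgeR adjusted p = 0.00198). EGR1 was no longer called when control replicate 1, control replicate 2 or the overexpressing replicate 3 was left out, where the log2 fold change was 0.48, 0.58 and 0.50 and edgeR's adjusted p was 0.0563, 0.0587 and 0.0572. Over its 16 alternative fits the edgeR, DESeq2 or limma-voom adjusted p lay between 1.42e-05 and 0.0587.

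MAFF (ENSG00000185022, chr22:38200767-38216507 of GRCh38, plus strand) encodes a small MAF protein, which has a zipper but no activation domain and pairs with CNC factors such as NRF2 as well as with itself. It fell more than any other of the 10 factors. Its level was 21.3, 20.7 and 20.2 CPM in control replicates 1, 2 and 3, and 14.4, 12.3 and 13.8 CPM in overexpressing replicates 1, 2 and 3. The groups were well apart, with the highest overexpressing library below the lowest control library. The mean was 20.7 ± 0.547 CPM in control and 13.5 ± 1.07 CPM with overexpression (SD, n = 3). The log2 fold change was -0.62 (SE 0.09, edgeR adjusted p = 0.00232), and -0.42 after the GC and length correction (edgeR adjusted p = 0.00152). MAFF was called in all 16 alternative fits, and when any 1 library was dropped the log2 fold change stayed between -0.66 and -0.56. Exons of PLA2G6 on the other strand share 326 bases with MAFF exons, and PLA2G6 was at 5.09 CPM in control and 3.99 CPM with overexpression.

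JUNB (ENSG00000171223, chr19:12791486-12793315 of GRCh38, plus strand), a single-exon gene whose protein can restrain JUN in some settings, was the most abundant factor per length. Its level was 272, 286 and 253 CPM in control replicates 1, 2 and 3. It was 214, 186 and 207 CPM in overexpressing replicates 1, 2 and 3, all below the control libraries. The mean fell from 271 ± 16.8 to 202 ± 14.8 CPM (n = 3, ± SD), with a log2 fold change of -0.42 (SE 0.07, edgeR adjusted p = 0.00485). The GC and length correction moved it to -0.14 (edgeR adjusted p = 0.0255), a smaller fall that was still called. JUNB was called in all 16 alternative fits. HOOK2 exons on the other strand share 259 bases with JUNB, and HOOK2 was at 16.5 CPM in control and 12.7 CPM with overexpression.

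JUND (ENSG00000130522, chr19:18279694-18281622 of GRCh38, minus strand), also a single-exon gene, encodes the JUN protein that is usually present in resting cells. Its level was 126, 141 and 124 CPM in control replicates 1, 2 and 3 and 111, 94.3 and 102 CPM in overexpressing replicates 1, 2 and 3. The groups did not overlap, and the log2 fold change was -0.35 (SE 0.07, edgeR adjusted p = 0.0125). Its transcript had a GC content of 69.9%, the highest of the 10. After the GC and length correction the log2 fold change was -0.03 (edgeR adjusted p = 0.724), and the call was lost. It was also lost without control replicate 2, at -0.29 (edgeR adjusted p = 0.0748), and without overexpressing replicate 3, at -0.34 (edgeR adjusted p = 0.0557).

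**Figure D2:**
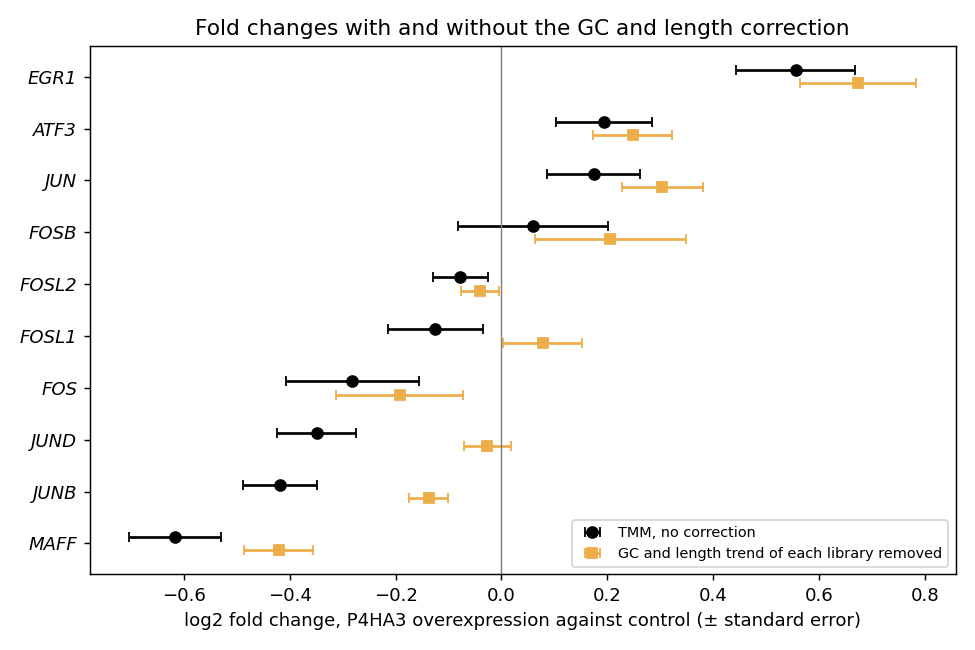
Log2 fold change of each factor (horizontal axis) with its standard error, without the GC and length correction (black circles) and with it (yellow squares). EGR1 stays above 0 and MAFF and JUNB below 0 in both, while JUND moves from -0.35 to -0.03.

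JUN (ENSG00000177606, chr1:58776845-58784048, minus strand), the strongest activator of its family and a target of JNK, was not called. Its level was 20.8, 21.2 and 19.5 CPM in control replicates 1, 2 and 3 and 23.5, 24.99 and 20.9 CPM in overexpressing replicates 1, 2 and 3. The groups overlapped, since overexpressing replicate 3 was below control replicate 2. The log2 fold change was 0.17 (SE 0.09, edgeR adjusted p = 0.168), and 0.30 with the GC and length correction, where it was called as higher (edgeR adjusted p = 0.0191). JUN thus kept its sign in both fits, unlike FOSL1 below.

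ATF3 (ENSG00000162772, chr1:212565334-212620777, plus strand), a stress-induced repressor that is also induced through ATF4, was not called without the correction either. Its level was 14.4, 14.5 and 14.4 CPM in control replicates 1, 2 and 3 and 16.7, 14.9 and 17.8 CPM in overexpressing replicates 1, 2 and 3. Every overexpressing library was higher, but the lowest of them by a margin smaller than the spread within its own group. The log2 fold change was 0.19 (SE 0.09, edgeR adjusted p = 0.142) without the correction and 0.25 (edgeR adjusted p = 0.0388) with it. ATF3 was called in 2 of its 16 alternative fits, both with the GC and length correction. It was called in 0 of the 6 fits with a library left out. Those fits carried no correction, so they cannot show whether the corrected call rests on 1 library.

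The 4 FOS genes were not called by edgeR, before or after the correction, nor by DESeq2 or limma-voom, and FOS alone had an unadjusted p under 0.05 in edgeR's test. FOS (ENSG00000170345, chr14:75278826-75282230, plus strand), the classical serum-induced partner of JUN, was at 10.2, 7.79 and 10.3 CPM in control replicates 1, 2 and 3 and at 7.43, 7.43 and 8.44 CPM in overexpressing replicates 1, 2 and 3. Control replicate 2 lay among the overexpressing libraries. The log2 fold change was -0.28 (SE 0.13, edgeR adjusted p = 0.127), and -0.19 with the correction. FOSL1 (ENSG00000175592, chr11:65892049-65900573, minus strand), which encodes FRA1, a FOS protein known for raised levels in invasive carcinoma cells, was at 23.4, 24.7 and 20.3 CPM in control replicates and at 20.8, 21.5 and 20.3 CPM with overexpression. Its log2 fold change was -0.13 (SE 0.09), and its sign turned with the correction, to 0.08. FOSL2 (ENSG00000075426, chr2:28392448-28417317, plus strand), which encodes FRA2, was at 224, 232 and 227 CPM in control replicates and at 209, 223 and 214 CPM with overexpression. Its highest overexpressing library lay just below its lowest control library, and the log2 fold change was -0.08 (SE 0.05, edgeR adjusted p = 0.293), and -0.04 with the correction. FOSB (ENSG00000125740, chr19:45467995-45475179, plus strand), the least abundant of the 10, lay between 49 and 58 counts in every library, and its log2 fold change was 0.06 (SE 0.14), and 0.21 with the correction (SE 0.14, edgeR adjusted p = 0.373).

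**Figure D3:**
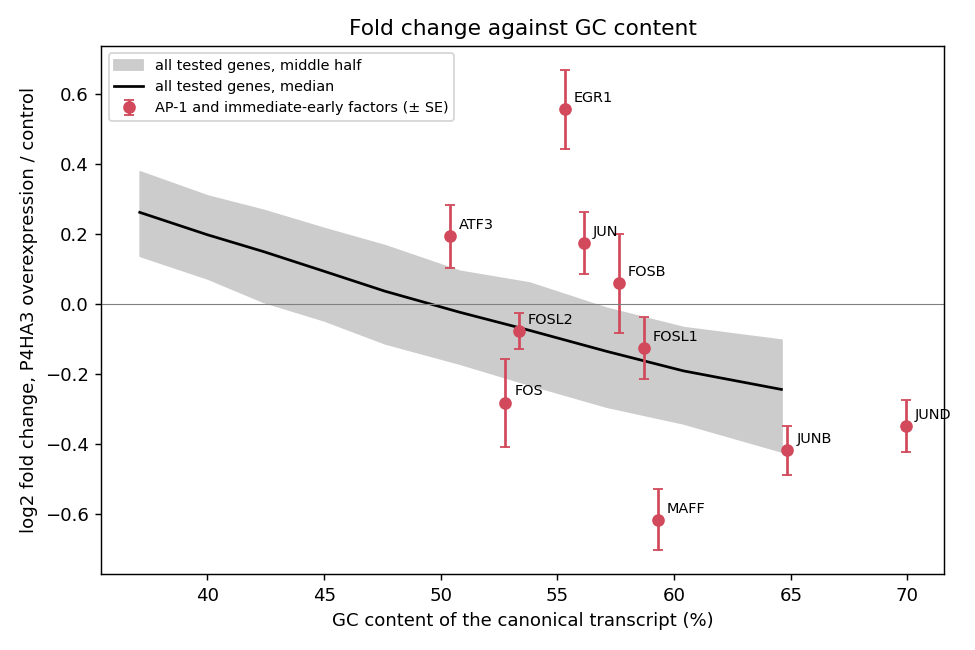
Log2 fold change against the GC content of the canonical transcript, with the median (line) and the middle 50% (grey) of all tested genes in 10 bins of GC content, and the 10 factors with standard errors (red). The median of all genes ran from 0.26 in the bin of lowest GC content to -0.24 in the bin of highest, and EGR1 and MAFF lay furthest from that line, above and below it. JUND, at 69.9%, lies beyond the last bin's median.

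The factors differed widely in abundance. On the scale of CPM per kilobase of exon, JUNB was at 147.8 ± 9.16, JUND at 67.5 ± 4.83, FOSL2 at 31.8 ± 0.628, FOSL1 at 12.1 ± 1.21 and JUN at 5.65 ± 0.244 in control cells (SD, n = 3). These levels were set in the same order in the overexpressing cells, at 110.6 ± 8.11, 53.0 ± 4.25, 30.1 ± 0.968, 11.1 ± 0.315 and 6.38 ± 0.573, and no neighbours among them overlapped over the libraries of a group. Below JUN, the control levels of MAFF (3.69), ATF3 (3.61), EGR1 (3.44) and FOS (2.96) overlapped from each to the next, and FOSB came last at 0.411. With overexpression, EGR1 was at 5.05 and ATF3 at 4.12, which overlapped, followed by FOS at 2.44 and MAFF at 2.41, which also overlapped, and FOSB at 0.429. These levels rest on the length assigned to each gene, here the union of its exons. With canonical transcript lengths, MAFF (8.73) and ATF3 (7.44) stood above JUN (6.29) in control cells, and with overexpression MAFF (5.69) and EGR1 (5.05) overlapped, so the order below FOSL1 depends on that choice.

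Within the FOS family, FOSL2 made up 67.3% ± 1.39 of the per-length level in control cells and 68.3% ± 0.39 with overexpression (SD, n = 3). FOSL1 made up 25.6% ± 1.95 and 25.1% ± 0.508, FOS 6.28% ± 1.07 and 5.54% ± 0.465, and FOSB 0.87% ± 0.0324 and 0.973% ± 0.0431, the last without overlap between the groups. The FOS-type RNA was therefore mostly FOSL2 and FOSL1 in both groups, and their shares overlapped between the groups. Within the JUN family, JUNB made up 66.9% ± 0.718 in control and 65.1% ± 0.768 with overexpression, with every overexpressing library below every control library, and JUND 30.5% ± 0.768 and 31.2% ± 0.51. JUN itself was a small part, at 2.56% ± 0.0711 in control and 3.78% ± 0.539 with overexpression, with every overexpressing library above every control library. The summed JUN family ran from 208 to 235 CPM per kilobase in control and from 157 to 181 with overexpression, and the summed FOS family from 46.0 to 48.4 and from 43.0 to 45.3. These sums and shares carry no GC correction and no test, and JUN has a lower transcript GC content (56.1%) than JUNB (64.9%) and JUND (69.9%). The part of the GC trend in the JUN and JUNB shares was not tested.

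**Figure D4:**
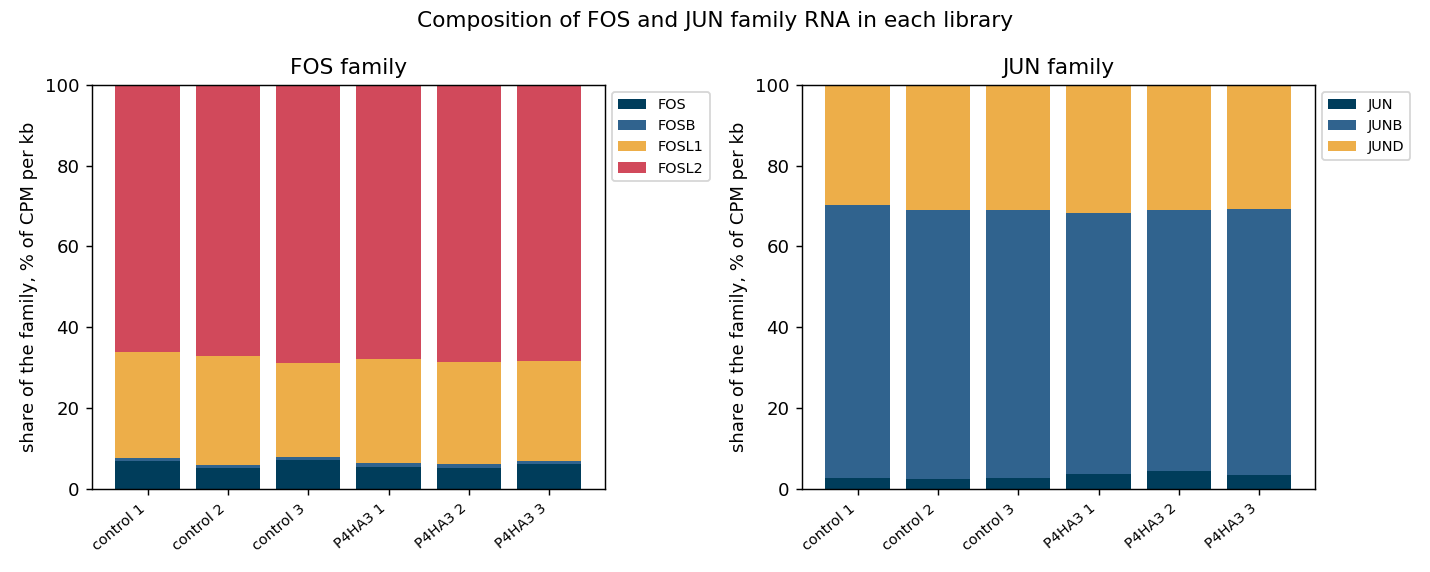
Share of each gene in the per-length RNA of the FOS family (left) and the JUN family (right), in percent, for each of the 6 libraries. FOSL2 and JUNB hold the largest share of their family in every library, JUNB lies between 66.5% and 67.7% in control and between 64.5% and 65.95% with overexpression, and JUN takes between 2.48% and 2.62% in control and between 3.36% and 4.38% with overexpression.

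Across the 6 libraries, the genes whose log2 CPM followed a factor most closely were taken, for the 9 factors other than FOSB, which was under 5 CPM, from 10631 other genes of at least 5 CPM. They were MVP and INPP5K for JUNB (Pearson's r 0.9999 and 0.999), ERGIC1 and GRB7 for JUND (0.999 and 0.998), COL18A1 and HAGHL for MAFF (0.998 for both) and GOLGA5 and ZNF468 for EGR1 (0.998 and 0.997). They were MANF and ALG2 for ATF3, LAMA3 and SLC35B4 for FOS, VSIG10L and SEPHS2 for FOSL1, EPPK1 and EHF for FOSL2, and TRIM16 and DPF2 for JUN, with r from 0.959 for SEPHS2 upwards. These coefficients rest on 6 libraries in 2 groups, which share the group difference and the GC trend, and are descriptions only. JUNB, JUND and MAFF followed each other with r between 0.938 and 0.980, and EGR1 ran against them with r between -0.947 and -0.881.

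Other genes of the AP-1 and MAPK network moved in both directions. Over 7 lists, 34 genes were called, and this count fell to 9 without control replicate 2 and to 15 without control replicate 1 or overexpressing replicate 3. The counts of each list below stand against 9.36% of all genes tested called higher and 11.4% called lower. With the GC and length correction these shares were 10.6% and 7.94%. Of 11 tested AP-1 and MAF partners, 2 were lower and 0 higher by edgeR, and DESeq2 and limma-voom each also called 2. An unadjusted p under 0.05 in edgeR's test was found for 5 partners, and for 5854 of all 15130 genes tested. The 2 lower calls fell to 0 without control replicate 2 and to 1 without control replicate 1 or overexpressing replicate 3, and 2 partners were called higher without overexpressing replicate 1. BATF3, a zipper protein that pairs with JUN proteins and lacks an activation domain, fell from 3.42 ± 0.397 to 1.64 ± 0.474 CPM (n = 3, ± SD), with a log2 fold change of -1.05 (SE 0.20, edgeR adjusted p = 0.00849) that was -0.82 with the GC and length correction. MAFK, a small MAF gene like MAFF, had -0.28, which was -0.05 with the correction and no longer called. Of the 11 partners, 1 was called higher and 1 lower with the correction. Their median log2 fold change was 0.11 with it and 0.08 without it.

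Of 20 tested other immediate-early genes, 6 were higher and 4 lower, with a median log2 fold change of 0.03. The higher calls fell to 2 and the lower calls to between 2 and 3 when control replicate 1, control replicate 2 or overexpressing replicate 3 was left out, and the higher calls to 4 without control replicate 3 or overexpressing replicate 2. With the GC and length correction 6 were higher and 3 lower, with a median of 0.10. CCN1, a secreted matricellular protein induced by SRF and YAP, rose from 271 ± 1.99 to 467 ± 55.4 CPM (SD, n = 3), the largest rise of the list, with a log2 fold change of 0.78 (SE 0.08, edgeR adjusted p = 0.000573) and 0.84 with the correction. KLF6, a zinc finger factor, rose from 28.2 ± 0.292 to 38.8 ± 3.29 CPM, a log2 fold change of 0.46 and 0.39 with the correction. IER3, which encodes a stress-induced regulator of survival and ERK signalling, fell from 52.2 ± 2.41 to 33.4 ± 4.54 CPM, and NR4A2, an orphan nuclear receptor, from 14.6 ± 0.908 to 9.51 ± 1.23 CPM. Their log2 fold changes were -0.64 and -0.62, and stayed called at -0.45 and -0.63 with the correction. EGR2 and EGR3, relatives of EGR1, were too low to be tested, with at most 11 counts in a library. Their relative EGR4, at 16 to 28 counts per library, was tested and not called. Its log2 fold change was -0.38 (SE 0.21, edgeR adjusted p = 0.235), and -0.10 with the correction. Every overexpressing library was below every control library for EGR4.

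Several genes known as outputs and feedback inhibitors of ERK signalling were lower. Of 11 tested, 6 were called lower and 0 higher by edgeR (7 had an unadjusted p under 0.05, and DESeq2 and limma-voom each called 6), with a median log2 fold change of -0.24 against 0.01 over all genes tested, and 7 were called lower with a median of -0.33 after the GC and length correction. ETV4, an ETS factor raised by ERK, was at 30.7, 29.5 and 25.7 CPM in control replicates 1, 2 and 3 and at 17.7, 15.8 and 14.9 CPM in overexpressing replicates 1, 2 and 3. Its log2 fold change was -0.83 (SE 0.10, edgeR adjusted p = 0.00111), and -0.61 with the correction. Its relative ETV5 had -0.43, DUSP6, a phosphatase of ERK, -0.44, and SPRY4, an inhibitor upstream of RAF, -0.37. With the correction these were -0.45, -0.48 and -0.33, and all 4 genes were still called. The count of 6 fell to 4 without control replicate 3 or overexpressing replicate 2, and to 2 without control replicate 1, control replicate 2 or overexpressing replicate 3, while the list's median stayed between -0.27 and -0.23. EGR1, which ERK also induces, was higher in the same libraries, so these genes and EGR1 moved in opposite directions.

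Among the kinases upstream of the factors, calls went both ways. Of 18 tested MAPK cascade kinases, 3 were higher and 3 lower, with a median of 0.02. No kinase was called by edgeR without control replicate 2, 1 was called lower and 0 higher without control replicate 1 or overexpressing replicate 3, 2 lower and 0 higher without overexpressing replicate 2, 3 higher and 5 lower without control replicate 3, and 5 higher and 6 lower without overexpressing replicate 1. MAP2K6, an activator of p38, had a log2 fold change of -0.44, RPS6KA1, a kinase activated by ERK, -0.38, MAPK3, which encodes ERK1, -0.31, and MAP2K4, an activator of JNK, 0.24. With the correction MAP2K6 and RPS6KA1 stayed called, at -0.71 and -0.22, and MAPK3 and MAP2K4 did not, at -0.07 and 0.09. Of the 18 kinases, 2 were called higher and 2 lower with the correction, with a median of 0.05. Of 10 tested SRF and CREB regulators, 0 were called by edgeR, DESeq2 or limma-voom, and 4 had an unadjusted p under 0.05 in edgeR's test. With the correction 1 was called higher and 2 lower. In the fits without the correction, 3 were called higher and 1 lower when overexpressing replicate 1 was left out. These uncorrected counts were 1 and 1 without overexpressing replicate 2, and 0 and 1 without control replicate 3.

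Among 15 tested genes known as AP-1 targets, 2 were higher and 4 lower, with a median of -0.17. These became 0 and 2 without control replicate 2, 1 and 3 without control replicate 1 or overexpressing replicate 3, 1 and 4 without control replicate 3 or overexpressing replicate 2, and 3 and 4 without overexpressing replicate 1. After the GC and length correction 4 targets were higher and 4 lower, and the median was -0.03. Without the correction, DESeq2 called 4 targets and limma-voom 6. DESeq2 gave no adjusted p for the 2 targets that edgeR called higher, which had low counts. MMP1, an interstitial collagenase, rose from 0.767 ± 0.23 to 1.80 ± 0.191 CPM (SD, n = 3), from between 14 and 25 counts per control library, with a log2 fold change of 1.22 (SE 0.23, edgeR adjusted p = 0.0079) and 1.14 with the correction. IL6, an inflammatory cytokine, had -0.51, VEGFA, an angiogenic factor, -0.36, and TIMP1, an inhibitor of metalloproteinases, -0.34, and all 3 were called after the correction too, at -0.59, -0.32 and -0.15. Among 8 tested ATF4 stress genes that accompany ATF3, 2 were higher and 2 lower. The higher calls fell to 0 when control replicate 1, control replicate 2 or overexpressing replicate 3 was left out, and to 1 without overexpressing replicate 2, and the lower calls fell to 1 without control replicate 2. DDIT3, which encodes the stress factor CHOP, had 0.46 and CEBPG, a dimer partner of ATF4, 0.27, whereas CEBPB, another zipper factor, had -0.41 and TRIB3, an inhibitor of ATF4, -0.38. With the correction DDIT3 had 0.53 and TRIB3 -0.16, both still called, and the CEBPB and CEBPG calls were lost, at -0.12 and 0.12. Of the 8 ATF4 stress genes, 3 were called higher and 1 lower with the correction. Their median was 0.13 with it and 0.04 without it. Of the 22 genes named from these lists, 10 share exon bases with another gene (BATF3, CCN1, KLF6, NR4A2, SPRY4 and TIMP1 are among those that do not), and as the strand setting of the counting is not given, reads in the shared bases are uncertain.

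**Figure D5:**
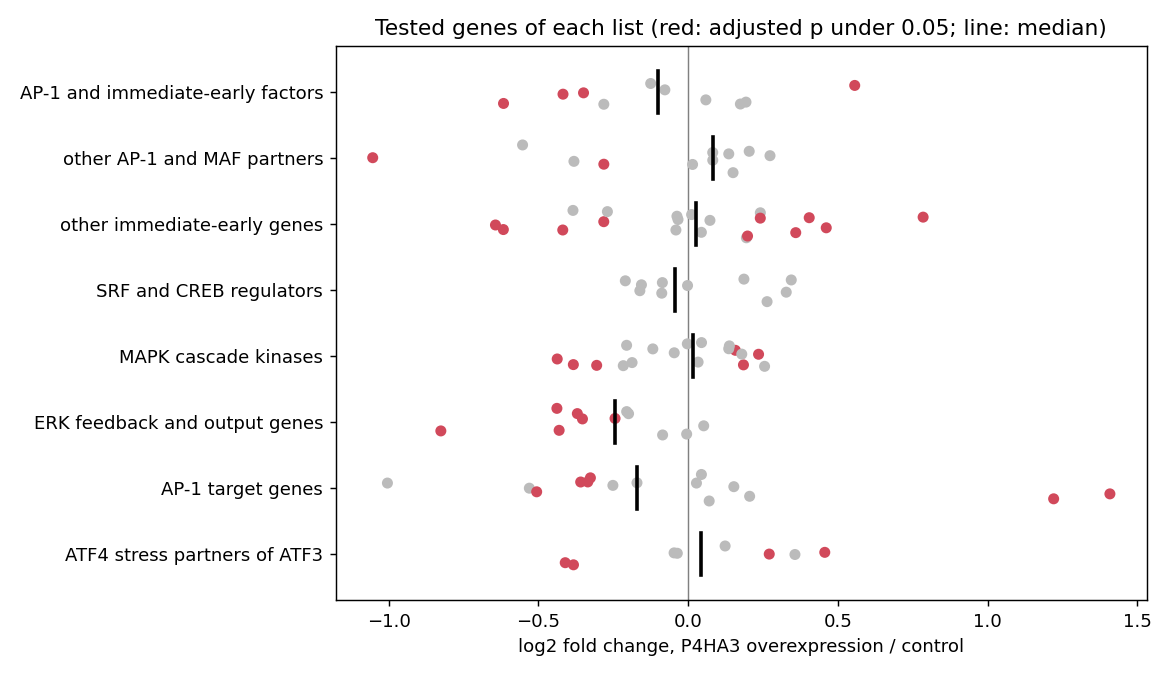
Log2 fold change of each tested gene (points) in the AP-1 and immediate-early factors and the 7 other lists, with the median of each list (line) and red points at an adjusted p under 0.05 from edgeR. The ERK feedback and output genes lie mostly left of 0, with a median of -0.24, and the other lists spread to both sides.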

How the data were processed

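RNA-seq of 6 samples in 2 groups was analysed. The authors selected poly-A RNA, built strand-specific libraries, aligned reads to GRCh38 (Ensembl annotation) and counted them on genes with HTSeq. Their methods name STAR, whereas the submitters' processing notes name HISAT2, and the strand setting is not given in the sources used here. The deposited values are raw counts per gene, without normalization.

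The tests used edgeR 4.0.16 under R 4.3.3 (filterByExpr with a minimum count of 10, TMM, glmQLFit and glmQLFTest, two-sided, Benjamini-Hochberg over all genes tested, called at an adjusted p under 0.05). Standard errors are the log2 fold change divided by the root of the F statistic. CPM are TMM-normalized. Symbols, positions, lengths and GC content came from GENCODE release 44 (GRCh38), which matched 60463 of 60664 identifiers. For the GC and length correction, smooth terms (mgcv 1.9.3) of each library's deviation entered as an offset. Alternatives were DESeq2 1.42.0, limma-voom (limma 3.58.1), other normalizations, filters and thresholds, a replicate block and each library left out in turn. The test was checked on simulated counts.

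The factors and the gene lists were chosen with earlier results of these data known. Named list genes are, per list, up to 4 called genes of at least 1 CPM with the largest absolute log2 fold change, and likeness was computed over genes of at least 5 CPM. EGR2, EGR3, EGR4 and the marker genes were named after their values were seen.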

Additional observations from a re-analysis of the deposited data

How the results depend on the processing

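P4HA3, JUNB and MAFF were called in the same direction in all 16 alternative fits. Among the 10 factors, the number called higher was 1 in the main test. It was 3 with the GC and length correction, 3 with the replicate block with GC and length correction, and 0 at an adjusted p under 0.01 (edgeR). With single libraries left out it ranged from 0 to 1. In edgeR's test 5 of the 10 factors had an unadjusted p under 0.05, as had 5854 of all 15130 genes tested. The number called lower was 3 and kept within 1.5 times of that. FOSL1 reversed from -0.13 to 0.078 with the correction, with and without the block. Of the genes in the other lists, 34 were called, 15 at an adjusted p under 0.01, and between 9 (without control replicate 2) and 46 (without overexpressing replicate 1) with single libraries left out. The FOSL2 share of its family was 64.7% in control and 65.9% with overexpression by canonical transcript length.

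Deviations of same-numbered samples correlated at 0.255, -0.0505 and 0.0289. For different-numbered samples across the groups the correlation lay between -0.308 and 0.274. These values do not settle whether the replicate number is a pairing, and the main test did not use it as one. The replicate block left the factors called at 1 higher and 3 lower, while calls over all genes went from 3147 to 4313. Over all genes, 781, 534 and 904 were called without control replicate 1, control replicate 2 and overexpressing replicate 3, 2206 without overexpressing replicate 2 and 5530 without overexpressing replicate 1. The number called higher was 1416 in the main test, 2384 with no filter on low counts and 2136 with the block and the correction. The correction moved the higher calls from 45% to 57.1% of all calls. FOSB, at 49 to 58 counts per library, had the largest standard error of the 10 factors.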
